A study of Homo sapiens with 30 samples.

Results

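TALL-1 is 1 of 5 cell lines established from T-cell leukaemia (acute lymphoblastic, T-ALL) that were exposed to decitabine (DAC), and the result described here is how its response differed from that of the other lines. The measure is a difference of responses: the change of TALL-1, decitabine minus DMSO, minus the mean change of PEER, MOLT-16, Loucy and PER-117, on the log2 scale. All 30 libraries of the series entered it by their labels, 6 of TALL-1 and 24 of the other 4 lines, and 15081 genes had enough reads to be tested. The 5 decitabine groups (TALL-1, PEER, MOLT-16, Loucy and PER-117) received 1 µM decitabine for 48 h, and the 5 DMSO groups of the same lines received the solvent alone, with 3 libraries in each of the 10 groups. All cells grew in RPMI-1640 medium with fetal calf serum, penicillin, streptomycin and glutamine, and the labels name no other agent or genetic change. Total RNA was sequenced from the 3′ end of polyadenylated transcripts, so a level is a share of reads (CPM, counts scaled to a common library total) and is compared between libraries for 1 gene, not between genes. Each line is an established culture of its own, so what sets TALL-1 apart as a line cannot be told apart from what set its cultures apart, and a permutation of 1 line against 4 cannot give a one-sided p below 0.2. The p-values below therefore measure the spread between libraries of a group, which may be technical because no label states that they came from separate cultures.

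Decitabine is a cytidine analogue that is built into DNA during replication, where it traps DNA methyltransferases, so that methylation is lost as cells divide and damage can accumulate. Its effects depend on the cell cycle. In the textbook view, E2F transcription factors switch on the genes of the G1/S transition, among them the MCM helicase that loads at replication origins, CDC45 and the GINS proteins that complete the active helicase, the polymerases with their clamp PCNA, and the enzymes that make nucleotides. Genes of mitosis are repressed in resting and G1 cells by the DREAM complex and switched on later, in G2, by MYB-MuvB with FOXM1, which act at a short promoter element called the cell cycle homology region (CHR), often with CCAAT boxes bound by NF-Y. Core histone genes are transcribed in S phase, and their mRNAs usually end in a stem-loop without a poly(A) tail. Cancer-testis genes are silenced by promoter methylation in most adult tissues and are the classical genes to rise after decitabine.

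The promoters of 6 genes that the comparison turns on are shown here, since the genes lower in TALL-1 included many G1/S genes and the genes higher included many mitosis genes. Each runs 5′ to 3′ on the gene's strand over 300 bases, 250 before and 50 after the start that RefSeq gives in GRCh38.p14. In the promoters of MCM7 (chr7:100101348-100101647, minus strand), E2F1 (chr20:33686336-33686635, minus strand) and GINS2 (chr16:85688905-85689204, minus strand), capitals mark E2F letters, searched as TTCCCGC, as TTGGCGC, as TTCGCGC and as TTGCCGC on both strands. A pair of these matches overlap each other in MCM7 and also overlap a CCAAT.
MCM7: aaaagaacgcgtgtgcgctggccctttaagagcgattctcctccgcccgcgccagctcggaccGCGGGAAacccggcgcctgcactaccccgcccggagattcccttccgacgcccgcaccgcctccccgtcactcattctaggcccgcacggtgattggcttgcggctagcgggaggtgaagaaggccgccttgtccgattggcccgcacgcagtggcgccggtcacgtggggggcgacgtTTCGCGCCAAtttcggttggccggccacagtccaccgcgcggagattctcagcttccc
E2F1: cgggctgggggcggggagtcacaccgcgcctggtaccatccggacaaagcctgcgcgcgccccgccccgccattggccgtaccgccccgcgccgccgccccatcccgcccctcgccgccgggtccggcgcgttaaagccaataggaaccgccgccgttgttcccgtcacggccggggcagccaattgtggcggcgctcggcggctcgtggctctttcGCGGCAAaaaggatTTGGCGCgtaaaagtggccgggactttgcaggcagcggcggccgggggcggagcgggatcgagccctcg
GINS2: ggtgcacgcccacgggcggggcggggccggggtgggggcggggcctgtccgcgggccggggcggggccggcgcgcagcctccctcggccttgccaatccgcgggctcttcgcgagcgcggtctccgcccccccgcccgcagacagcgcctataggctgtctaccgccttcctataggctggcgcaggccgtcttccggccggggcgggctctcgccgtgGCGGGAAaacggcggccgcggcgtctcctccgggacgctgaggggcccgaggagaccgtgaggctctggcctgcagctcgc
In the promoters of CDC20 (chr1:43358731-43359030, plus strand), PLK1 (chr16:23678639-23678938, plus strand) and PIF1 (chr15:64825598-64825897, minus strand), capitals mark CHR letters, searched as TTTGAA and also as TTCGAA on both strands.
CDC20: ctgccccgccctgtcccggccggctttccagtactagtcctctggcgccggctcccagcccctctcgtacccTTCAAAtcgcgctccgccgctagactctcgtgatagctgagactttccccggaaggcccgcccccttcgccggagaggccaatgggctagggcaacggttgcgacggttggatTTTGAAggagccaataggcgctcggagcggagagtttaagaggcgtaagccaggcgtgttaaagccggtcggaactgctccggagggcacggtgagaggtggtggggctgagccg
PLK1: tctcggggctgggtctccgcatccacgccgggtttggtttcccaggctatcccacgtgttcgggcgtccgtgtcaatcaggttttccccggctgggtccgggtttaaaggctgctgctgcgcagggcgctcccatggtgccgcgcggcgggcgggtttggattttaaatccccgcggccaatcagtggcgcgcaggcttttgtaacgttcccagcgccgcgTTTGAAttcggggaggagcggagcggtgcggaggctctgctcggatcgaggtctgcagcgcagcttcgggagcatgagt
PIF1: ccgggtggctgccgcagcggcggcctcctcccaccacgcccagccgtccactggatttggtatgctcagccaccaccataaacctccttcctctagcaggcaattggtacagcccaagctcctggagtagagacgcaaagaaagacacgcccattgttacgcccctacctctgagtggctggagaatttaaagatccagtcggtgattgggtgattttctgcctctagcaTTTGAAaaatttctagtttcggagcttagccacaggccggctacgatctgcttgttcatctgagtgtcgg

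The E2F letters occurred 3 times in the MCM7 promoter, 2 times in that of E2F1 and 1 time in that of GINS2. The CHR letters occurred 2 times in the promoter of CDC20 and 1 time in those of PLK1 and PIF1. Among all 27305 promoters of this length, 13.1% held E2F letters, 16.6% CHR letters and 35.7% a CCAAT, searched on both strands as well. Of the 15081 tested genes, 10742 had a promoter in the table, and the shares were 20.5%, 11.4% and 37%. Of the 604 genes lower in the difference, 462 had one, with E2F letters in 31.4%, CHR letters in 8.01% and a CCAAT in 40.3%. Of the 509 genes higher in the difference, 404 had one, with E2F letters in 19.3%, CHR letters in 22% and a CCAAT in 42.6%. Among the list members with a promoter, E2F letters were in 11 of 17 origin licensing genes, 18 of 26 polymerase and fork genes and 8 of 15 G1/S regulators, but in 3 of 20 nucleotide supply genes, and they were also in 16 of 49 mitosis genes and 15 of 35 core histone genes. CHR letters were in 37 of 49 mitosis genes, and a CCAAT in 40 of 49 mitosis genes and 29 of 35 core histone genes. The promoters of CDC45, TK1 and PCLAF held none of the E2F letters in this window, whereas that of MCM3 held 3 and that of DTL held 2. A match is a description of letters, not of a bound site.

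The libraries held 2197347 to 15391979 reads assigned to genes, and those of TALL-1 held 2494122 to 6538242. The reads mapping to no place made up 2.81 to 12.3% and the mitochondrial share of gene reads was 3.84 to 6.46%. The markers of T cells were all present in TALL-1, 11 of 11, with a summed level of 4800 to 5340 CPM with decitabine and 6370 to 7030 CPM with DMSO. Of the 6 myeloid markers, MPO, CD33, CSF1R, LYZ and S100A9 had no reads in the TALL-1 decitabine libraries, CD14 and CSF1R had none in its DMSO libraries, and the summed level was 0 to 0.449 CPM with decitabine against 0 to 2.33 CPM with DMSO. The 6 markers of NK and cytotoxic cells summed to 46.3 to 58.6 CPM with decitabine and 8.8 to 12.5 CPM with DMSO, with NCAM1 at 0 reads in DMSO. The 4 B-cell markers summed to 10.3 to 16.1 CPM with decitabine and 11.3 to 22.7 CPM with DMSO, the 4 erythroid markers to 0 CPM and 0.492 to 1.07 CPM, and the 6 epithelial and stromal markers to 9.18 to 14.5 CPM and 2.95 to 16.1 CPM.

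Among the DMSO libraries, 3 stood out by the level of genes restricted to another line: TALL-1 DMSO replicate 3, MOLT-16 DMSO replicate 3 and PEER DMSO replicate 2. This was read from genes with at least 10 CPM in the DMSO libraries of 1 line and at most 0.3 CPM in the unmixed DMSO libraries of every other line. In TALL-1 DMSO replicate 3, 21 of 21 such PEER genes had reads, at a median of 15.7% of their PEER level. In MOLT-16 DMSO replicate 3, the same 21 genes had a median of 21.4% of their PEER level. In PEER DMSO replicate 2, 18 of 19 MOLT-16 genes had reads at a median of 5.13% of their MOLT-16 level. The choice of genes held the other 12 DMSO libraries low, so they give no separate comparison. Some of them held reads of such genes too, as TALL-1 DMSO replicate 1 at 10 of 21 PEER genes, but with medians of at most 1.16%. The fit without the 3 mixed libraries is therefore not shown to be free of reads from other lines. Because TALL-1 DMSO replicate 3 is 1 of the 3 libraries that define the untreated level of TALL-1, results are given with all 30 libraries and again without the 3 mixed ones.

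Decitabine moved TALL-1 in a different way from the other lines at 509 genes that were higher in the difference, 3.38% of the 15081 tested, and 604 that were lower, 4.01% (edgeR quasi-likelihood test, Benjamini-Hochberg adjusted p under 0.05). Of these, 217 of the higher and 381 of the lower differed by at least 2-fold. The median difference over all genes tested was -0.05. In the fit that left the mixed libraries out, 704 genes (4.47%) had a higher and 835 (5.3%) a lower response among 15741 tested, and 448 of the 509 (88%) and 414 of the 604 (68.5%) were called again the same way. The higher genes were mostly rises of TALL-1 itself: 414 of the 509 were called higher in TALL-1 alone (6.74% of all genes tested were), 98 were called lower in the mean of the other 4 lines (8.65%), 36 of them in both, and 33 in neither. Their median change was 0.84 in TALL-1 and -0.09 in the mean of the others. The lower genes were more mixed, since 360 of the 604 were called lower in TALL-1 alone (6.12%) and 263 were called higher in the mean of the others (13.1%), 46 of them in both and 27 in neither. Their median change was -0.93 in TALL-1 and 0.30 in the mean of the others. Every group held at least 10 reads for 462 of the 509 higher genes and for 403 of the 604 lower genes, against 10677 of all 15081. The difference shares its libraries with the responses of the single lines, so these are given beside it only to show what it is made of. For comparison, TALL-1 alone had 1017 genes higher and 923 lower with decitabine than with DMSO, and the mean of the other 4 lines had 1975 higher and 1304 lower.

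**Figure D1:**
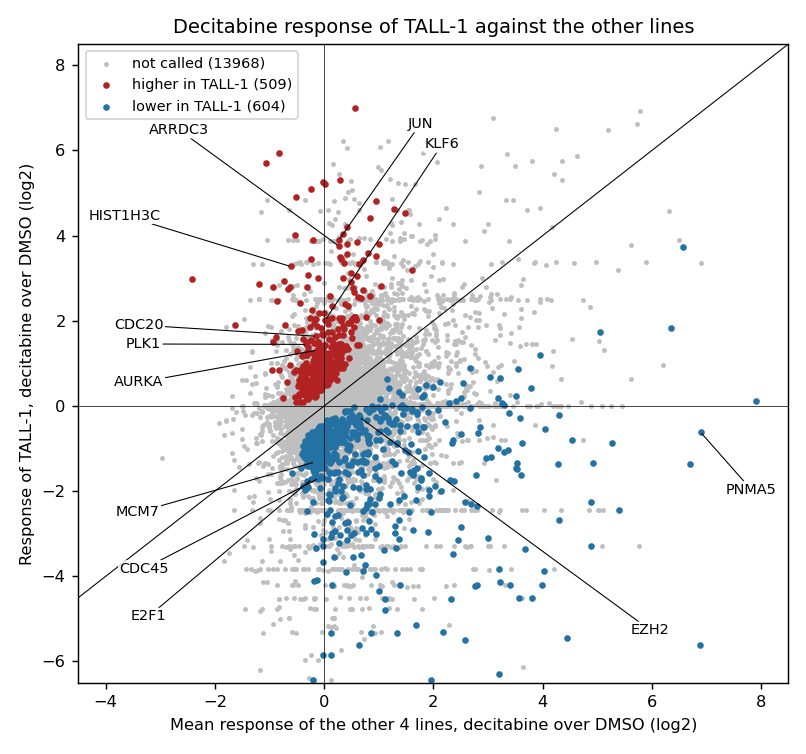
Each point is 1 of 15081 tested genes, with the response of TALL-1 (decitabine over DMSO, log2) on the vertical axis and the mean response of the other 4 lines on the horizontal axis. The 509 genes higher in TALL-1 (red) lie above the line of equal responses and mostly near 0 on the horizontal axis, while the 604 lower genes (blue) include both falls of TALL-1 such as CDC45 and rises of the other lines such as PNMA5, and 7 genes lie outside the plotted range.

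Many genes of DNA replication fell in TALL-1. Of 20 genes for origin licensing and the replicative helicase, 15 were called lower in TALL-1 itself (6.12% of all genes tested were). The mean of the other lines had 3 called lower (8.65%). In the difference 13 were lower (65%, against 4.01% of all genes tested) and the rest did not pass the test. The median difference was -0.99 against -0.05 over all genes. The median change of these 20 genes was -1.11 in TALL-1, -0.19 in PEER, 0.01 in MOLT-16, -0.22 in Loucy and -0.20 in PER-117. The MOLT-16 value rests on DMSO libraries that differed among themselves. In replicates 1, 2 and 3 MCM6 had 234, 86.1 and 186 CPM and MCM2 had 332, 163 and 362 CPM. Replicate 2 was not the lowest at MCM5, with 336, 260 and 243 CPM. With MOLT-16 left out of the mean, 12 of the 20 genes were lower in the difference. The 13 were CDC45, MCM6, GINS2, MCM5, MCM3, MCM7, CDC6, CDT1, MCM10, MCM4, MCM2, ORC1 and GINS3, and 14 of the 20 were lower without the mixed libraries. Their summed level was 1592 to 1769 CPM in TALL-1 with decitabine and 3334 to 4200 CPM with DMSO, while the DMSO libraries of the other lines lay between 1952 and 3091 CPM. TALL-1 therefore stood above the other lines before treatment and below them after it, since their decitabine libraries lay between 2062 and 2675 CPM. RNA was taken from whole cultures, in which fewer cells in S phase and less RNA per cell cannot be told apart.

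CDC45, the helicase cofactor encoded at chromosome 22, 19479459 to 19520612 (GRCh38), had 26.4, 36.2 and 27.1 CPM in TALL-1 with decitabine, against 95.1, 99.1 and 102 CPM with DMSO. The groups did not overlap, and the other lines moved little, as in PEER with 72.7 to 77.2 CPM with decitabine and 77.5 to 94.8 CPM with DMSO. The difference of responses was -1.59 (SE 0.196, adjusted p = 7.5e-06, edgeR). MCM7, a subunit of the helicase ring at chromosome 7, 100092728 to 100101940, had 291, 239 and 229 CPM in TALL-1 with decitabine, against 595, 748 and 553 CPM with DMSO. All 3 decitabine values were below all 3 DMSO values, and the difference was -1.14 (SE 0.152, adjusted p = 2e-05). GINS2, a subunit of the GINS complex, had 30.4, 24.7 and 29.4 CPM with decitabine, against 68, 90.3 and 76.6 CPM with DMSO. Its response also stood apart from that of PEER, whose libraries had 64.2 to 76.1 CPM with decitabine and 78.3 to 96.8 CPM with DMSO, and the difference was -1.35 (SE 0.178, adjusted p = 1.7e-05). CDC6, which loads the helicase at origins, had a difference of -1.13, MCM2 one of -0.98 and MCM6 one of -1.45.

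**Figure D2:**
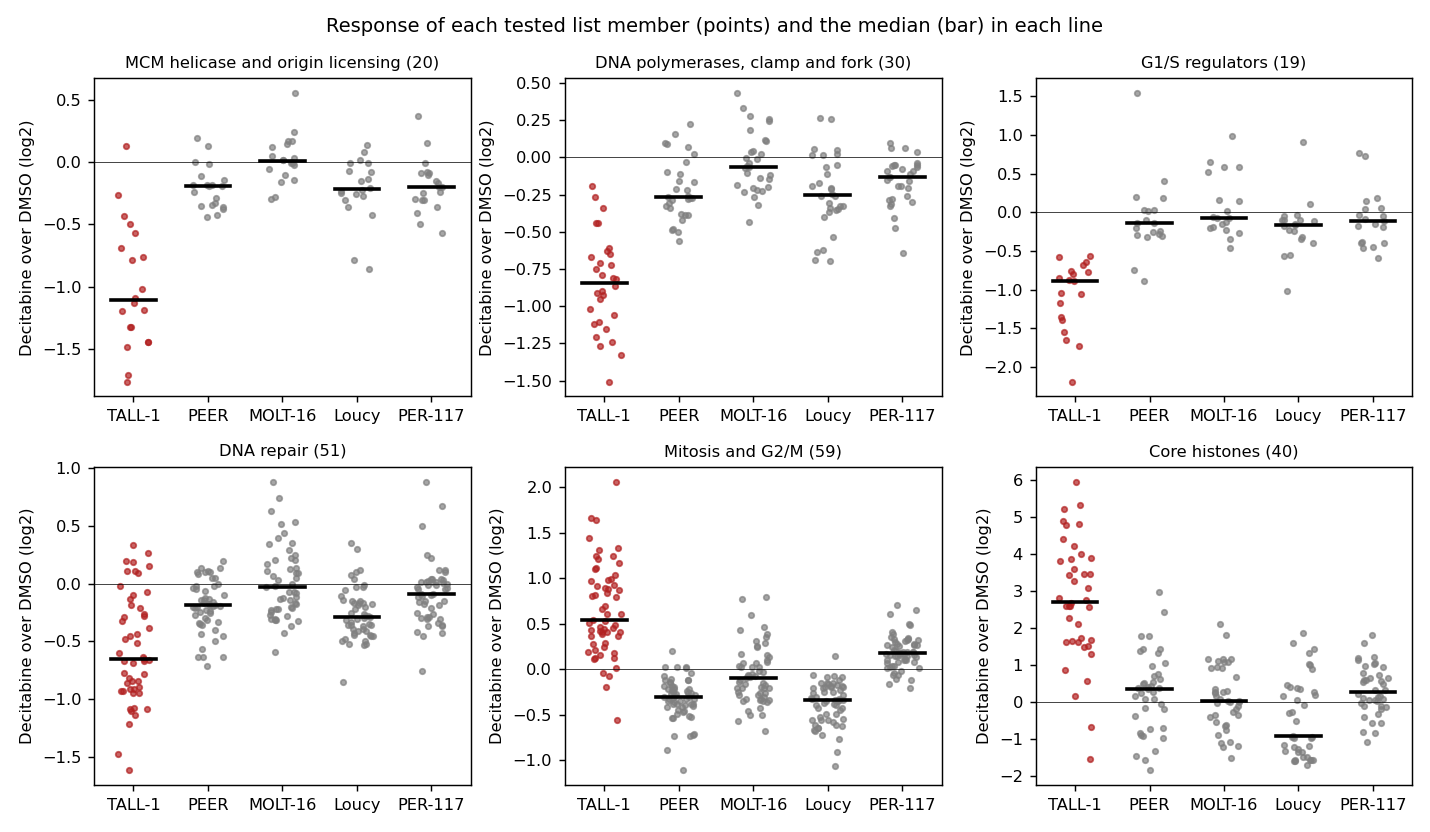
Points are the responses (decitabine over DMSO, log2) of the tested members of 6 gene lists in TALL-1 (red) and the other 4 lines (grey), and bars are medians. In TALL-1 the medians lie at -1.11 for origin licensing, -0.84 for polymerases and fork genes, -0.89 for G1/S regulators, -0.65 for DNA repair, 0.54 for mitosis and 2.70 for core histones, and in each panel the TALL-1 median is farther from 0 than those of the other lines.

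The polymerases, the sliding clamp and the proteins of the fork followed the same pattern. Of 30 such genes 16 were lower in the difference (53.3%, against 4.01% of all genes tested), with a median difference of -0.69. Without the mixed libraries 20 of the 30 were lower. The median change of the 30 was -0.84 in TALL-1 and -0.18 in the mean of the others. That mean also had 8 members called lower (8.65% of all genes tested were). PCNA, the clamp that holds polymerases on DNA, had 278, 346 and 266 CPM in TALL-1 with decitabine and 875, 837 and 822 CPM with DMSO. The groups lay far apart, while in PEER, the line with the next largest gap, the levels were 319 to 342 CPM with decitabine and 429 to 513 CPM with DMSO. Its difference was -1.36 (SE 0.269, adjusted p = 0.0017). In MOLT-16 with DMSO PCNA varied widely, at 410, 142 and 415 CPM in replicates 1, 2 and 3. With MOLT-16 left out of the mean, 14 of the 30 genes were lower in the difference. PCLAF, a PCNA partner that was on none of the lists, had 431, 443 and 392 CPM with decitabine and 1130, 1300 and 1030 CPM with DMSO in TALL-1, and a difference of -1.46 (SE 0.185). RFC5 (clamp loader), POLE (leading strand polymerase) and ASF1B (histone chaperone) had differences of -0.97, -0.90 and -1.06.

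The enzymes of nucleotide supply were lower at 8 of 23 genes (34.8%, against 4.01% of all genes tested), with a median difference of -0.48. Without the mixed libraries 10 of the 23 were lower. Among the 8 were TK1, RRM2, DUT, RRM1, TYMS, PAICS and ATIC, and ATIC lost its call without the mixed libraries. TK1, the thymidine kinase of the salvage pathway, had 26.7, 19.5 and 22.6 CPM in TALL-1 with decitabine and 56.7, 68.1 and 56.9 CPM with DMSO. The groups did not overlap in TALL-1 and did overlap in MOLT-16, Loucy, PEER and PER-117 (for MOLT-16, 56.8 to 79.2 CPM with decitabine and 50.6 to 82 CPM with DMSO). RRM2, the small subunit of ribonucleotide reductase, had 85.3, 84.1 and 68.8 CPM with decitabine and 205, 187 and 241 CPM with DMSO, a difference of -1.25 (SE 0.179, adjusted p = 5.3e-05). TYMS, thymidylate synthase, fell in the mean of the other lines too, by 0.37, and the difference of -0.83 is what TALL-1 fell beyond it. DUT, which removes dUTP, had a difference of -1.13, and in MOLT-16 with DMSO it had 355, 139 and 466 CPM in replicates 1, 2 and 3. With MOLT-16 left out of the mean, 7 of the 23 genes were lower in the difference.

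Of 19 regulators of the G1/S transition, 10 were lower (52.6%, against 4.01% of all genes tested), with a median difference of -0.84. Without the mixed libraries 12 of the 19 were lower. E2F1, the founding member of the E2F family, had 50.4, 42.8 and 36.3 CPM in TALL-1 with decitabine and 133, 190 and 108 CPM with DMSO. The TALL-1 groups did not overlap, and the DMSO libraries of the other lines held 45.5 to 112 CPM, mostly below those of TALL-1. The difference was -1.49 (SE 0.181, adjusted p = 6.6e-06). CCNE1, the cyclin that activates CDK2 at the transition, had 11, 5.84 and 8.41 CPM with decitabine and 17.8, 25.3 and 20.1 CPM with DMSO, a difference of -1.46. E2F2 and CDK2 had differences of -1.01 and -0.84. Among the 10 called genes, CCND2 was the one that lost its call without the mixed libraries.

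DNA repair genes were lower at 16 of 51 (31.4%, against 4.01% of all genes tested) and at 21 without the mixed libraries. The median difference of the 51 was -0.51. The called genes included MSH6 of mismatch repair, FANCD2, FANCG and FANCI of the Fanconi pathway, BRCA1 and BARD1 of homologous recombination, and DDB2 of nucleotide excision repair. RMI2, of the complex that resolves recombination intermediates, had 46.4, 50.6 and 43.6 CPM in TALL-1 with decitabine and 141, 182 and 111 CPM with DMSO. No decitabine library reached the lowest DMSO library, and the difference was -1.47 (SE 0.204). BRCA1 and MSH6 had differences of -1.0 and -0.98.

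Genes of mitosis moved the opposite way. Of 59 genes of G2 and mitosis, 33 were higher in the difference (55.9%, against 3.38% of all genes tested) and the rest did not pass the test, with a median difference of 0.83, and 39 were higher without the mixed libraries. Their median change was 0.54 in TALL-1, -0.31 in PEER, -0.09 in MOLT-16, -0.34 in Loucy and 0.18 in PER-117. Of the 59 genes, 55 had a change above 0 in TALL-1, 5 in PEER, 22 in MOLT-16, 1 in Loucy and 51 in PER-117, so PER-117 shared the direction at a smaller size. The summed level was 9409 to 10430 CPM in TALL-1 with decitabine and 5278 to 7773 CPM with DMSO, and the DMSO libraries of the other lines lay between 6165 and 7622 CPM.

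CDC20, the activator of the anaphase-promoting complex, is encoded at chromosome 1, 43358955 to 43363203. It had 203, 160 and 200 CPM in TALL-1 with decitabine and 77, 42.8 and 60.2 CPM with DMSO. No library of the other lines came near the TALL-1 decitabine level, PER-117 being the highest among their decitabine groups with 95.8 to 106 CPM. The difference was 1.78 (SE 0.19, adjusted p = 1e-06). PLK1, the kinase that drives mitotic entry and spindle assembly, had 148, 110 and 136 CPM with decitabine and 60.9, 25.6 and 57.1 CPM with DMSO, a difference of 1.77 (SE 0.229, adjusted p = 1.5e-05). AURKA, the centrosome kinase that activates PLK1, had 276, 236 and 268 CPM with decitabine and 124, 69.9 and 120 CPM with DMSO, a difference of 1.45 (SE 0.163). For these 3 genes TALL-1 DMSO replicate 2 was the lowest library of TALL-1, and even the highest DMSO library stayed below every decitabine library. PIF1, a DNA helicase, had 86, 65.7 and 89.5 CPM with decitabine and 26.4, 11.6 and 19.2 CPM with DMSO, and with a difference of 2.33 (SE 0.268) it was the highest of the list. CCNB1, the mitotic cyclin B, and CENPA, the centromeric histone, had differences of 1.36 and 1.37.

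Core histone genes showed the highest median difference of the 27 lists. Of 63 such genes 40 had enough reads to be tested. Of the 40, 29 were higher in the difference (72.5%, against 3.38% of all genes tested) and 1 was lower (2.5%, against 4.01%). The median difference was 2.60. Without the mixed libraries 27 of the 40 were higher. The higher genes spread over the 4 kinds of core histone, with 7 of 10 H2A genes, 11 of 13 H2B genes, 5 of 8 H3 genes and 6 of 9 H4 genes. Because a gene that is nearly silent in DMSO can pass the read filter through the decitabine group alone, the 20 genes with at least 10 reads in every group were also set apart, of which 15 were higher and 1 lower, with a median difference of 2.06. The median change of the 40 was 2.70 in TALL-1, 0.36 in PEER, 0.03 in MOLT-16, -0.93 in Loucy and 0.27 in PER-117. The summed level of all 40 was 1024 to 1421 CPM in TALL-1 with decitabine and 556 to 895 CPM with DMSO. In Loucy it was 630 to 812 CPM with decitabine and 1573 to 2281 CPM with DMSO. The sum in TALL-1 thus rose by less than the median member did, and stayed below that of Loucy with DMSO. Because a library made from poly(A) tails detects only the histone transcripts that carry one, a change in transcription and a change in 3′ end processing cannot be told apart here. The genes of a histone kind are near-identical copies, so reads may be split among them, and the value of a single histone gene is uncertain.

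HIST1H3C, 1 of the H3 genes on chromosome 6, 26045411 to 26045821, had 10.8, 20.2 and 18 CPM in TALL-1 with decitabine and 1.5, 1.72 and 1.79 CPM with DMSO. The other lines had 0.886 to 3.16 CPM with decitabine and 1.49 to 4.34 CPM with DMSO, so the TALL-1 decitabine libraries stood alone. The difference was 3.89 (SE 0.387, adjusted p = 6.1e-07). HIST1H2BD, an H2B gene, had 32.4, 59 and 49.7 CPM with decitabine and 7.94, 7.87 and 7.7 CPM with DMSO, a difference of 2.48 (SE 0.325). HIST1H4B had a difference of 3.87, HIST1H4E one of 3.56, HIST1H2BG one of 2.72 and HIST1H4H one of 2.79. HIST1H2BI and HIST1H2AH, with 0 to 0.179 CPM and 0 to 0.429 CPM in the TALL-1 DMSO libraries, had 4.04 to 8.03 CPM and 6.9 to 9.18 CPM with decitabine. HIST2H2BE was the gene that was lower, by a difference of -1.22.

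A mean of 4 lines can be moved by 1 of them, so a stricter test asked which genes responded in TALL-1 beyond each of the other lines, with the largest of the 4 pairwise p-values as the p of the gene. It called 21 genes higher (0.139% of those tested) and 12 lower (0.0796%), and 32 (0.203%) and 30 (0.191%) without the mixed libraries, with 18 of the 21 and 11 of the 12 called again. The 4 that were not were HIST1H4E (adjusted p beyond each line 0.041 with all libraries and 0.056 without the mixed ones, edgeR), RGS2 (0.045 and 0.21), MIER1 (0.035 and 0.08) and GCSAML (0.026 and 0.14). Of the 12 lower genes, 8 were on the lists of replication, nucleotide supply and G1/S genes (CDC45, GINS2, MCM3, MCM4, MCM5, MCM7, TK1 and E2F1), and the others were PCLAF, the ubiquitin ligase adaptor DTL, which acts on replicating chromatin, GCSAML and the zinc finger gene ZNF101. The 21 higher genes held 4 core histones (HIST1H3C, HIST1H4E, HIST1H2BG and HIST1H2BD) and 4 genes of the mitosis list (PIF1, CDC20, PLK1 and AURKA). The other 13 were JUN, ARRDC3, RGS2, SAPCD2, TNFAIP3, KLF6, ZKSCAN2-DT, ZC3H12A, BATF, FAM53C, EPC1, PCF11 and MIER1. The counts of this test moved with single libraries, to 10 higher and 1 lower without TALL-1 DAC replicate 2, to 15 and 2 without TALL-1 DAC replicate 3, and to 20 and 49 without TALL-1 DMSO replicate 2. In the less strict difference against the mean of the 4 lines, all 33 genes kept their call when any 1 of the 30 libraries was left out.

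**Figure D3:**
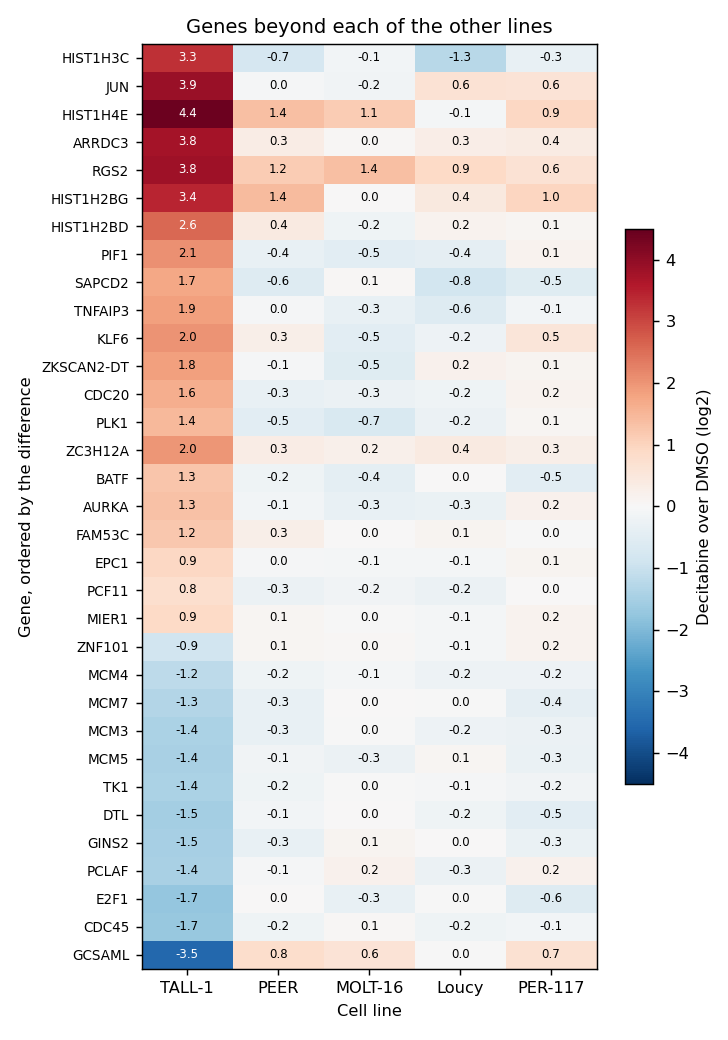
The colours and numbers give the response (decitabine over DMSO, log2) of the 33 genes called beyond each of the other lines, 1 row per gene in order of the difference and 1 column per line with TALL-1 at the left. The TALL-1 column holds the rises, up to 4.41 at HIST1H4E, and the falls, down to -3.54 at GCSAML, while the other columns stay between -1.26 and 1.42.

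Among the named genes with at least 10 reads in every group, JUN and ARRDC3 had the highest differences outside the histones. JUN, a subunit of the AP-1 transcription factor at chromosome 1, 58780788 to 58784327, had 656, 578 and 650 CPM in TALL-1 with decitabine and 44.6, 36.9 and 44.4 CPM with DMSO. No other group reached these levels, the next being Loucy with decitabine at 67.4 to 77.7 CPM, and the difference was 3.63 (SE 0.447, adjusted p = 7.5e-06). In PEER the DMSO level was 5.2 and 2.07 CPM in the unmixed libraries and 32.1 CPM in the mixed replicate 2, and without the mixed libraries the difference was 3.26. ARRDC3, an arrestin-domain adaptor, is encoded at chromosome 5, 91368724 to 91383359. It had 695, 590 and 698 CPM with decitabine and 48.3, 60 and 38.5 CPM with DMSO. The other lines stayed between 21.2 and 54.8 CPM with decitabine and between 14.1 and 44.1 CPM with DMSO, and the difference was 3.50 (SE 0.216, adjusted p = 1.3e-11).

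**Figure D4:**
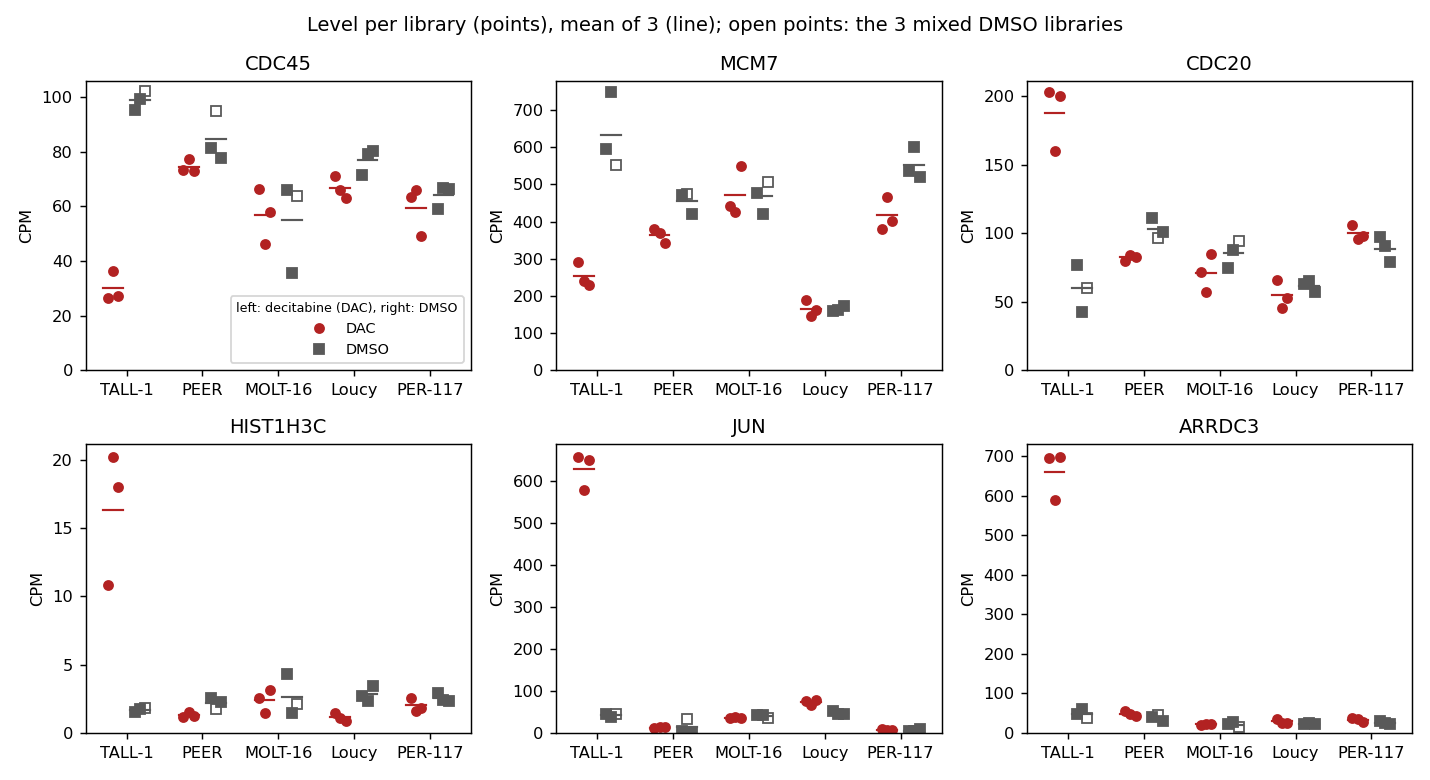
Levels (CPM) of CDC45, MCM7, CDC20, HIST1H3C, JUN and ARRDC3 in each of the 30 libraries, with decitabine (red circles) left of DMSO (grey squares) in each line, lines for means of 3 libraries and open squares for the 3 mixed DMSO libraries. In TALL-1 the 3 decitabine libraries lie apart from the 3 DMSO libraries for all 6 genes, at 578 to 656 CPM against 36.9 to 44.6 CPM for JUN.

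The other genes higher beyond each line were measured at lower levels or moved less. TNFAIP3, which encodes the NF-κB inhibitor A20, had 76.3, 97.9 and 76.5 CPM in TALL-1 with decitabine and 24.3, 16 and 28.8 CPM with DMSO, a difference of 2.12 (SE 0.233). KLF6, a zinc finger transcription factor, had 285, 300 and 334 CPM with decitabine and 85, 52.4 and 87.9 CPM with DMSO, a difference of 2.00 (SE 0.211). In neither did a DMSO library approach the decitabine libraries. ZC3H12A, an RNase that degrades inflammatory mRNAs, had 43.9, 54.9 and 53.5 CPM with decitabine and 11.4, 11.1 and 15.4 CPM with DMSO. RGS2, a regulator of G-protein signalling, rose in the mean of the other lines too, by 1.01, and by 3.80 in TALL-1, where its level was 7.82 to 13.4 CPM with decitabine and 0.429 to 1.07 CPM with DMSO. BATF, an AP-1 partner, had 50.1, 50.7 and 50.1 CPM with decitabine and 21.7, 22.6 and 18.8 CPM with DMSO, and its mean change in the other lines was -0.28. EPC1, a subunit of the NuA4 acetyltransferase complex, PCF11, a factor of mRNA 3′ end cleavage, and MIER1 had smaller differences of 0.97, 0.92 and 0.86, measured at levels of 106 to 420 CPM in the TALL-1 decitabine libraries.

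Among the genes that maintain DNA methylation, the target of the drug, calls went in both directions. Of 21 genes of the methylation machinery 2 were higher (9.52%, against 3.38% of all genes tested) and 4 lower (19%, against 4.01%), with a median difference of 0.01, and all 6 kept their call without the mixed libraries. DNMT1, the maintenance methyltransferase, had 263, 382 and 359 CPM in TALL-1 with decitabine and 887, 1030 and 709 CPM with DMSO, and its cofactor UHRF1 had 29, 34.9 and 34 CPM with decitabine and 86.7, 87.3 and 69.5 CPM with DMSO. Neither gene overlapped between the groups in TALL-1, and the differences were -1.27 (SE 0.343, adjusted p = 0.022) and -1.16 (SE 0.323, adjusted p = 0.026). Of the 30 fits that left out 1 library, DNMT1 lost its call in 2 and UHRF1 in 5. The DNMT1 level varied widely in MOLT-16 with DMSO, at 251, 95.6 and 521 CPM in replicates 1, 2 and 3, against 417 to 535 CPM with decitabine. DNMT1 moved down in the other lines too. PEER had 391 to 498 CPM with decitabine and 493 to 843 CPM with DMSO, Loucy 471 to 517 CPM and 542 to 715 CPM, and PER-117 572 to 763 CPM and 766 to 914 CPM. HELLS, a chromatin remodeller needed for methylation, had a difference of -1.03. EZH2, the polycomb methyltransferase, had one of -0.92, beside a rise of 0.66 in the mean of the other lines, the highest being that of Loucy with 1.29 to 2.16 CPM with decitabine and 0.175 to 0.329 CPM with DMSO. DNMT3B, a de novo methyltransferase, and TET1, which oxidises methylcytosine, were higher, with differences of 1.36 and 1.35. TET1 had 52.7, 61.5 and 40.5 CPM in TALL-1 with decitabine and 28.5, 27.1 and 34 CPM with DMSO, while its mean change in the other lines was -0.55.

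Fewer cancer-testis and germline genes were called higher in TALL-1 than in the mean of the other lines, and the number of calls in the difference depended on 1 library. Of 65 such genes 25 could be tested, 9 of them were lower in the difference (36%, against 4.01% of all genes tested), with a median difference of -3.32, and without the mixed libraries the median was -2.96. Their median change was 0.54 in TALL-1 and 4.35 in the mean of the others. In that mean 21 of the 25 were called higher (13.1% of all genes tested were), against 3 in TALL-1 (6.74%). A gene nearly silent in TALL-1 could pass the read filter through the decitabine libraries of another line. MAGEB1 did so, with 0 reads in TALL-1 and 117 in PER-117 with decitabine. The mean of the others also rests on more libraries, so these counts do not compare the lines evenly. The summed level of the 25 was 94.7, 57 and 81.4 CPM in TALL-1 with decitabine, against 16.1, 15.2 and 92.4 CPM in DMSO replicates 1, 2 and 3. The mixed replicate 3 thus lay as high as the treated libraries, and against replicates 1 and 2 the summed level of TALL-1 moved about as in Loucy, which had 59.7 to 72.6 CPM with decitabine and 14.7 to 17 CPM with DMSO. It held reads of all 5 genes that were nearly silent in PEER with DMSO and active in PEER with decitabine (CTAG2, PAGE5, CTCFL, TUBA3D and PNMA6E), at a median of 14.6% of the PEER decitabine level and a range of 9.63 to 27.3%. Without the 3 mixed libraries 2 of the 25 remained lower, TDRD12 and MAEL, and 5 were called higher in TALL-1 itself (7.46% of all genes were). Only 1 of the 25 genes had at least 10 reads in every group, so fold changes here rest on groups with few or no reads.

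**Figure D5:**
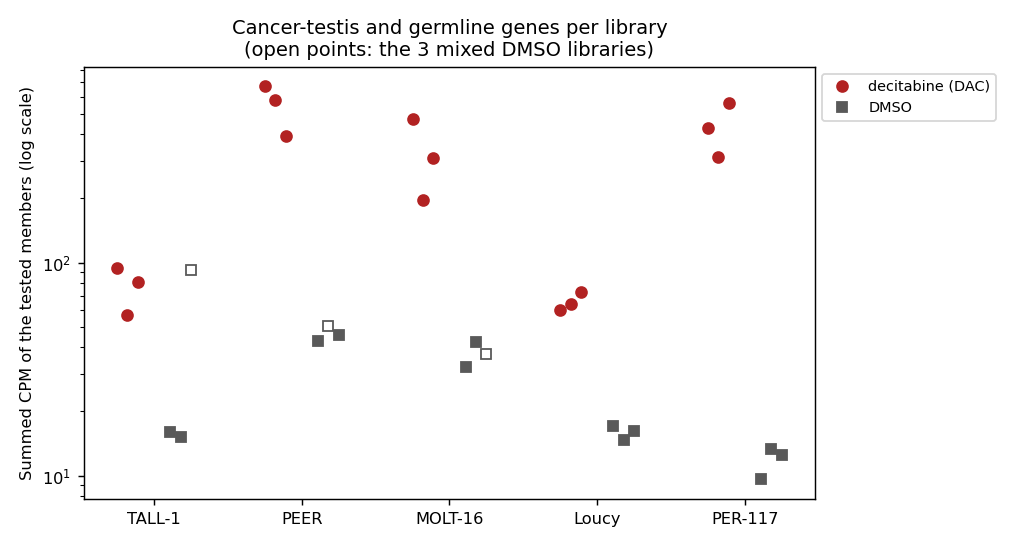
Summed level of the 25 tested cancer-testis and germline genes (CPM, log axis) in each library, decitabine (red circles) left of DMSO (grey squares), open squares for the mixed DMSO libraries. With decitabine TALL-1 reached 57 to 94.7 CPM and Loucy 59.7 to 72.6 CPM, below PEER, MOLT-16 and PER-117 at 197 to 672 CPM, and the open square of TALL-1 lies at 92.4 CPM among its treated libraries.

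Single genes show how this looks in reads. PNMA5, a paraneoplastic antigen family member on chromosome X, had 90, 43 and 40 reads in TALL-1 with decitabine, against 6, 3 and 322 reads in DMSO replicates 1, 2 and 3. PAGE5, an X-linked cancer-testis antigen, had 154 reads over the TALL-1 decitabine libraries and 4 over its DMSO libraries, and PRAME had 273 and 67. DDX4, the germ-cell RNA helicase, had 82 and 16 reads. TALL-1 with decitabine had 0 CTAG2 reads over its 3 libraries, a count that allows up to 3, against 146 in PEER, 111 in MOLT-16, 12 in Loucy and 547 in PER-117 with decitabine. CTAG2 and the MAGE genes have near-identical copies, so their counts are uncertain.

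Among the 12 lower genes that the naming rule picked by size, some values also moved with the mixed library, although the rule took only genes called with and without the 3 mixed libraries together. They were CLEC11A, FSCN1, RSAD2, PBX3, IRX3, PIP4K2C, SCN3A, SOCS2, LOXL1, CISH, ADGRG1 and FGR, with differences of -4.10 to -1.97. In 10 of the 12 the highest TALL-1 DMSO level was that of the mixed replicate 3, and in 10 the lowest was that of replicate 2. FSCN1, an actin-bundling protein, had 1.15, 2.1 and 1.53 CPM in TALL-1 with decitabine and 10.1, 1.23 and 72.9 CPM with DMSO, and PEER, the line mixed into replicate 3, held 353 to 419 CPM with decitabine and 355 to 520 CPM with DMSO. Without TALL-1 DMSO replicate 3, 7 of the 12 had a smaller difference and lost their call, with differences of -1.85 for CLEC11A, -1.60 for FSCN1, -2.37 for IRX3, -1.67 for PIP4K2C, -2.37 for RSAD2, -1.95 for SCN3A and -1.95 for SOCS2 (adjusted p = 0.0695 to 0.241, edgeR). PBX3, LOXL1, CISH, ADGRG1 and FGR kept it without each of the 30 libraries in turn. ADGRG1, an adhesion G-protein-coupled receptor, had 10.1, 8.08 and 5.73 CPM with decitabine and 35.8, 16.7 and 32.9 CPM with DMSO, a difference of -2.07 (SE 0.461, adjusted p = 0.0052). CISH, the cytokine-induced STAT5 feedback inhibitor, had 2.53, 4.79 and 7.65 CPM with decitabine and 25.8, 4.67 and 34.7 CPM with DMSO, so its groups overlapped. GCSAML, lower beyond each line, had 0.23, 0.599 and 0.765 CPM with decitabine and 4.08, 0.492 and 12.7 CPM with DMSO, and its difference was -4.07 with all libraries and -2.77 without the mixed ones. The 12 higher genes picked by size, among them SH3PXD2A at 2.63 besides JUN, ARRDC3, RGS2 and histones, kept their call without each library in turn.

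Of 36 targets of p53 and inhibitors of cyclin-dependent kinases, 2 were higher (5.56%, against 3.38% of all genes tested) and 3 lower (8.33%, against 4.01%), and 6 were lower without the mixed libraries. The mean of the other lines had 22 of the 36 called higher (13.1% of all genes were) and TALL-1 had 8 (6.74%). CDKN1A, which encodes the p21 inhibitor and is the classical p53 target, had 1.15, 0.449 and 1.91 CPM in TALL-1 with decitabine and 1.29, 0 and 3.4 CPM with DMSO. It rose by 2.35 in the mean of the other lines, and the difference of -3.15 (SE 0.78, adjusted p = 0.012) lost its call without the mixed libraries (-2.23, adjusted p = 0.13). The inhibitors CDKN1B (p27) and CDKN2D (p19) were higher in the difference, by 0.72 and 0.67. CDKN1B had 230, 201 and 253 CPM with decitabine and 138, 114 and 102 CPM with DMSO, with no overlap. DDB2, a p53 target of nucleotide excision repair, had 48.3, 33.7 and 36.7 CPM with decitabine and 62, 92.2 and 59.4 CPM with DMSO, a difference of -1.12. MDM2 and BTG2, other p53 targets, had differences of -0.31 and -0.54 that did not pass the test (adjusted p = 0.28 and 0.17), and BTG2 rose by 0.87 in TALL-1 and by 1.41 in the mean of the others.

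Among 42 genes of the MYC network and ribosome biogenesis, 3 were higher (7.14%, against 3.38% of all genes tested). The rest did not pass the test. MXD1 and MXI1, antagonists of MYC, had differences of 1.53 and 0.66, and ODC1, a MYC target in polyamine synthesis, had one of 0.97. MXI1 had 85.8, 84.6 and 85.6 CPM in TALL-1 with decitabine and 46.8, 47.2 and 41.2 CPM with DMSO. MYC itself had 10.3, 21.6 and 13.8 CPM with decitabine and 30.3, 16.2 and 36.3 CPM with DMSO, and its difference of -0.30 did not pass the test (adjusted p = 0.91). The list fell in TALL-1 by a median of 0.19 and in the mean of the others by 0.30. Its members called lower numbered 6 in TALL-1 (6.12% of all genes tested were) and 24 in the mean of the others (8.65%).

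The amino acid response and one-carbon genes were lower at 6 of 38 (15.8%, against 4.01% of all genes tested), with a median difference of -0.50. MTHFD2, the mitochondrial folate enzyme, had 236, 235 and 217 CPM in TALL-1 with decitabine and 1030, 1140 and 406 CPM in DMSO replicates 1, 2 and 3, a difference of -1.60 (SE 0.302, adjusted p = 0.0011). The mixed replicate 3 was the low one, and without the mixed libraries the difference was -1.83 and 16 of the 38 genes were lower. SLC7A1, a transporter of cationic amino acids, had 91.5, 108 and 119 CPM with decitabine and 309, 367 and 194 CPM with DMSO, a difference of -1.04. MTHFD1L and CTH had differences of -0.99 and -2.54, and CHAC1 had one of -2.55 that lost its call in 23 of the 30 fits that left out 1 library. The summed level of the list varied widely among the DMSO libraries, from 3830 to 8659 CPM in TALL-1 and from 5020 to 12280 CPM in MOLT-16, and the part of this variation in the calls was not tested.

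Of 46 interferon genes 3 were higher (6.52%, against 3.38% of all genes tested) and 6 lower (13%, against 4.01%), and 10 were lower without the mixed libraries. The mean of the other lines had 13 called higher (13.1% of all genes tested were) and TALL-1 had 5 (6.74%). PARP14 was lower by a difference of -0.88, and LGALS3BP by -1.55, with a mean rise of 1.99 in the other lines and a change of 0.44 in TALL-1 that did not pass the test. LGALS3BP was near 0 in the DMSO libraries of Loucy (0.0683 to 0.467 CPM, and 1.96 to 3.01 CPM with decitabine) and of PER-117 (0 to 0.108 CPM and 1.85 to 2.58 CPM). Its groups overlapped in PEER (16.7 to 25 CPM with DMSO, 16.1 to 20.3 CPM with decitabine) and in MOLT-16 (61.6 to 111 CPM and 92.8 to 114 CPM). MX2, an antiviral GTPase, had 21.2, 23.2 and 21.4 CPM in TALL-1 with decitabine and 9.01, 9.84 and 11.8 CPM with DMSO, and a difference of 1.28 (SE 0.239). The median change of the list was 0.24 in TALL-1 and 0.25 in the mean of the others.

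Of 38 genes of the T-cell receptor and the T-cell surface 2 were higher in the difference (5.26%, against 3.38% of all genes tested) and 3 lower (7.89%, against 4.01%), and the lower ones numbered 6 when the mixed libraries were left out. In TALL-1 itself 3 of the 38 were called higher (6.74% of all genes tested were) and 8 lower (6.12%). The mean of the other lines had 5 higher (13.1%) and 6 lower (8.65%). LCK, the kinase that starts receptor signalling, had 133, 114 and 127 CPM in TALL-1 with decitabine and 249, 273 and 272 CPM with DMSO, a difference of -0.82 (SE 0.147, adjusted p = 0.0007). CD247, the zeta chain of the receptor, was higher by 0.62, and CD2 was lower by -1.70. Of 50 T-cell and leukaemia transcription factors 2 were higher (4%, against 3.38% of all genes tested) and 7 lower (14%, against 4.01%). GATA3, the factor of early T-cell development, had 446, 483 and 495 CPM with decitabine and 271, 254 and 277 CPM with DMSO, and a difference of 0.84 (SE 0.178, adjusted p = 0.0031). SPIB and HHEX, with differences of -4.17 and -4.65, lost their calls without the mixed libraries, and ID3, an inhibitor of E proteins, kept it with -1.67.

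Of 17 genes of NK and cytotoxic cells 2 were higher in the difference (11.8%, against 3.38% of all genes tested), GZMA and NKG7, and both kept their calls without the mixed libraries. The median difference of the list was -0.56 with all libraries and 1.41 without the mixed ones, so its sign turned. GZMA, the granzyme A protease, had 15.2, 12.9 and 14.5 CPM in TALL-1 with decitabine and 0.215, 0.738 and 0.716 CPM with DMSO, a difference of 3.33 (SE 0.656, adjusted p = 0.0017). NKG7, a granule membrane protein, had 37.2, 32.5 and 30.2 CPM with decitabine and 7.94, 11.8 and 7.88 CPM with DMSO, a difference of 1.53 (SE 0.235). The TALL-1 groups lay apart for both genes. In Loucy GZMA had 40.6 to 52.6 CPM with decitabine and 4.47 to 6.08 CPM with DMSO, in MOLT-16 28.8 to 30.3 CPM with decitabine and 13.1 to 14.6 CPM with DMSO, while PER-117 had 36.1 to 45.7 CPM with decitabine and 67.5 to 87.1 CPM with DMSO. KLRD1 and NCAM1, markers of NK cells, had 4 and 2 reads over the 3 TALL-1 decitabine libraries. KIR3DL2 had 0 to 0.92 CPM with decitabine and 1.48 to 12 CPM with DMSO, and its difference did not pass the test. The lists of other cell types held few tested genes. CEBPA and S100A9 of 11 myeloid genes (18.2%, against 4.01% of all genes tested) and BLK of 12 B-cell genes (8.33%) were lower. These genes lost their calls without the mixed libraries. PECAM1, on the list of 10 epithelial and stromal genes (10%), was lower by -1.72, with a mean rise of 1.60 in the other lines. The lines differed in this. Loucy had 8.99 to 10.3 CPM with decitabine and 0.197 to 0.234 CPM with DMSO, and PEER 7.71 to 14 CPM and 2.89 to 9.35 CPM. MOLT-16 had 42.3 to 47.4 CPM and 29.2 to 42.9 CPM, while PER-117 fell, with 18.2 to 23.6 CPM and 23.7 to 27.4 CPM. The TALL-1 groups overlapped, at 21.4 to 32.2 CPM and 26.3 to 30.3 CPM.

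Among genes with fewer than 10 reads in some group, those with the highest levels were named by reads and CPM. CNN3, an actin-binding protein, had 4.83, 5.24 and 6.5 CPM in TALL-1 with decitabine and 0.215, 0.984 and 1.07 CPM with DMSO. CYTIP, which regulates leukocyte adhesion, had 19.1, 20.4 and 18.7 CPM with decitabine and 4.94, 5.9 and 4.83 CPM with DMSO, and GPR155 had 54.3, 50.3 and 47.8 CPM with decitabine and 16.7, 22.9 and 17.5 CPM with DMSO. Each was clearly separated in TALL-1. DUSP10, a phosphatase of JNK and p38, and KANK1 were also higher, by 3.0 and 1.93, and DIP2C, with 32, 32.3 and 25.2 CPM with decitabine and 1.72, 1.72 and 0.537 CPM with DMSO, had a difference of 3.07 that lost its call without the mixed libraries. CENPB, which binds centromeric repeats, was lower by -1.57 although TALL-1 moved little, with 155, 165 and 140 CPM with decitabine and 178, 263 and 157 CPM with DMSO. Among the other lines PER-117 had 2.18 to 4.7 CPM with decitabine and 0 to 0.324 CPM with DMSO. PRCP and PAFAH1B3 were lower by -0.95 and -0.83, PAFAH1B3 losing its call in 15 of the 30 fits that left out 1 library, and their changes of -0.07 and -0.29 in TALL-1 did not pass the test. At each of these genes 1 nearly silent line moved most among the other lines. For PRCP, Loucy had 1.27 to 1.76 CPM with decitabine and 0 to 0.341 CPM with DMSO. For PAFAH1B3, PER-117 had 0.758 to 1.57 CPM and 0 to 0.324 CPM.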

How the data were processed

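Libraries were made with the QuantSeq 3′ mRNA-Seq FWD kit, per the labels' protocols, and the deposited files hold raw read counts per gene without a header, in columns whose values are those of unstranded reads and of each strand. The submitters' processing notes name STAR 2.4.2a, GRCh38 (hg38) and DESeq2; no annotation release is named (not given in the sources used here). The column for the gene's own strand was used, in which reads were 12.8 to 15.2 times those on the other strand. Rows that name no gene (27.5 to 43.9% of a library) were left out. Of 60554 identifiers, 56996 matched GENCODE 29, which gave the symbols and coordinates, and 3558 had no symbol. Groups and replicate numbers follow the titles, which differ from the file names for PEER DMSO replicates 2 and 3.

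Genes passed edgeR's filterByExpr with a minimum count of 10. Counts were scaled by TMM and fitted with edgeR 4.0.16 (R 4.3.3, limma 3.58.1), 1 mean for each of the 10 groups and 20 residual degrees of freedom. Quasi-likelihood tests gave p-values, which were adjusted over all genes tested by Benjamini-Hochberg and called under 0.05; standard errors are the log2 value over the root of F. CPM values use the TMM library sizes. The test beyond each line takes the largest of 4 pairwise p-values when the 4 differences share a sign. The fit was also run on simulated counts in which only TALL-1 responded, at genes that were not low in reads, and no library was mixed. That run does not cover genes with few reads, responses of the other lines or mixed libraries. Libraries of 1 group differed by at least 2.13 times the counting noise (chi-square per degree of freedom), so none was counted as the same library deposited again.

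Named genes were, among protein-coding genes called both with and without the mixed libraries, the 12 highest and 12 lowest with at least 10 reads in every group, a size of 1 and 5 CPM in TALL-1, and the 6 higher and 6 lower with the highest level among those with fewer reads. To these were added up to 4 called members of each list by p and a set panel; the genes beyond each line, and a few others that make up a small count, were named after their values were seen, and some named genes are not reported here. The members, lists and panel were chosen with earlier results of these data known. Alternatives were leaving out the mixed libraries, each library, each line of the mean or a pair of them, RLE or no scaling, no filter, unstranded reads, thinned counts, a replicate block and DESeq2 1.42.0. Promoters come from RefSeq, GRCh38.p14.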

Additional observations from a re-analysis of the deposited data

Results flagged for a closer look

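The results below stand out because the response of TALL-1 and the responses of the other lines to the same treatment differed by a test of the difference itself. They are the 509 genes higher and the 604 genes lower in the difference of responses, and the 33 genes whose difference from every other line passed the stricter test. For these 33 genes the value given is the least of the 4 differences between TALL-1 and another line, on the log2 scale. It is a fitted value with its own error, not a lower bound.

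Among the core histone genes the least difference was 3.39 for HIST1H3C, 3.05 for HIST1H4E, 2.19 for HIST1H2BD and 2.01 for HIST1H2BG. Among the mitosis genes it was 1.91 for PIF1, 1.46 for CDC20, 1.34 for PLK1 and 1.12 for AURKA. Among the other higher genes it was 3.40 for ARRDC3, 3.25 for JUN, 2.45 for RGS2, 1.89 for TNFAIP3, 1.69 for SAPCD2, 1.65 for ZKSCAN2-DT, 1.59 for ZC3H12A, 1.50 for KLF6, 1.25 for BATF, 0.94 for FAM53C, 0.81 for EPC1, 0.75 for MIER1 and 0.74 for PCF11. The sign was shared by all 4 pairs of lines at each gene, because the test required it.

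Among the lower genes the least difference was -1.50 for CDC45, -1.14 for GINS2, -1.14 for MCM5, -1.09 for MCM3, -0.95 for MCM4 and -0.91 for MCM7 in the helicase, and -1.22 for TK1, -1.18 for PCLAF, -1.14 for E2F1 and -1.07 for DTL. It was -3.53 for GCSAML and -0.79 for ZNF101. For GCSAML the TALL-1 DMSO libraries ranged from 0.492 to 12.7 CPM with the highest in the mixed replicate 3, and its adjusted p beyond each line was 0.026 with all libraries and 0.14 without the mixed ones. No value of a single sample was tested for standing apart, because each group held 3 libraries.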

How the results depend on the processing

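A change of direction was counted only where a gene was called with all 30 libraries or in the alternative. By this count 1 of the 136 named genes turned, LGALS3BP, with 0.44 (not called) against the mean of PEER and MOLT-16 only. That alternative was chosen after seeing the data, as was the mean of Loucy and PER-117 only (496 higher, 779 lower). Genes called in neither fit were not checked for direction. For LGALS3BP and the changes below the cause was not tested unless stated. Counts that moved by over 1.5 times were, without the mixed libraries, 32 and 30 genes beyond each line and 2 cancer-testis genes; with no scaling factor, 7 lower beyond each line; with no filter, 34 and 109 beyond each line; with counts thinned to 2197347 reads, which leaves fewer reads, 299 higher, 323 lower, 7 and 4 beyond each line and 17 core histones; against PEER and MOLT-16 only, 385 lower; with DESeq2, 929 lower (612 higher). RLE scaling gave 474 and 641, and unstranded reads 511 and 531. Leaving out 1 library gave 335 to 667 higher and 358 to 956 lower genes, 10 to 30 and 1 to 49 beyond each line, and, for the lists, 26 to 38 mitosis, 25 to 33 core histone, 10 to 15 helicase, 12 to 18 polymerase, 6 to 12 nucleotide, 7 to 14 G1/S, 11 to 21 repair and 1 to 10 cancer-testis genes. Higher genes fell to 338 without TALL-1 DAC replicate 1, 335 without TALL-1 DMSO replicate 1 and 336 without its replicate 2. Lower genes were 370 without TALL-1 DAC replicate 1 or 2, 379 without replicate 3, 358 without TALL-1 DMSO replicate 3 and 956 without MOLT-16 DMSO replicate 3. Higher genes beyond each line were 10 without TALL-1 DAC replicate 2, 12 and 13 without Loucy DAC replicates 2 and 3, and 13 without PER-117 DAC replicate 3. Lower genes beyond each line were 1 and 2 without TALL-1 DAC replicates 2 and 3, 49 without TALL-1 DMSO replicate 2, 25 and 19 without MOLT-16 DMSO replicates 2 and 3, 4 and 6 without PEER DAC replicates 1 and 2, 7 without Loucy DMSO replicate 1, 7, 5 and 4 without PER-117 DAC replicates 1, 2 and 3, and 4, 6 and 7 without its DMSO replicates. The number of lower cancer-testis genes was 1 without TALL-1 DMSO replicate 3. Of the 136 named genes 98 kept their call without each library and 37 lost it without at least 1. Same-numbered libraries did not deviate together throughout (9 of 15 pairs correlated over 0.1, range -0.464 to 0.603; 8 of 15 decitabine libraries best with their own number), so the numbers were not taken as pairs; a replicate block gave 507 and 536 genes, 23 and 17 beyond each line, 6 cancer-testis genes, and without the mixed libraries 551 and 688 genes, 19 lower beyond each line and 3 cancer-testis genes. Depth limits the genes with few reads: TALL-1 and MOLT-16 libraries were shallower than those of Loucy and PER-117.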

Other observations

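Of 31 genes of cholesterol and fatty acid synthesis, 5 were higher in the difference (MSMO1, SQLE, ELOVL6, MVK and SC5D; 16.1%, against 3.38% of all genes tested) and 1 lower (3.23%, against 4.01%), with a median difference of 0.26, and MVK and SC5D lost their calls without the mixed libraries. MSMO1, the sterol C4-methyl oxidase, had 139, 137 and 129 CPM in TALL-1 with decitabine and 102, 90.8 and 104 CPM with DMSO, and it fell by 0.28 in the mean of the other lines. SQLE, the squalene epoxidase, had 125, 117 and 114 CPM with decitabine and 96.8, 88.5 and 71.4 CPM with DMSO. The differences were 0.73 (SE 0.177, adjusted p = 0.0098, edgeR) and 0.76 (SE 0.185, adjusted p = 0.011), and the groups did not overlap at either gene. ELOVL6, a fatty acid elongase, had a difference of 0.65.

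Of 18 imprinted genes 3 were lower in the difference (16.7%, against 4.01% of all genes tested). PHLDA2 and CDKN1C, both on chromosome 11, rose in the mean of the other lines by 4.05 and 3.59, while TALL-1 had at most 0.765 CPM of PHLDA2 and 0.69 CPM of CDKN1C with decitabine, against at most 1.43 CPM and 0.895 CPM with DMSO. Their differences were -4.60 and -3.86, and PHLDA2 lost its call without the mixed libraries. Of the 30 fits that left out 1 library, CDKN1C lost its call in 14 and PHLDA2 in 1. INPP5F was lower by -0.83. CD70, a ligand of the TNF family, was the single called gene of 26 cytokine and chemokine genes (3.85% lower, against 4.01% of all genes tested). It rose by 1.65 in the mean of the others, had a difference of -3.16 and lost its call without the mixed libraries. Among 15 linker and variant histones 1 was higher, CENPA (6.67%, against 3.38% of all genes tested), and 1 lower, H2AFJ, by -3.53 (6.67%, against 4.01%). H2AFJ lost its call without the mixed libraries. CORO1A, an actin regulator of leukocytes, had 4.6, 10.8 and 8.03 CPM in TALL-1 with decitabine and 29, 34.7 and 21.7 CPM with DMSO, and its difference of -1.04 passed the test without the mixed libraries only (adjusted p = 0.083 and, without them, 0.0034). The lists of MHC, BCL2 family, mitochondrially encoded and erythroid genes had median differences of 0.14, -0.04, 0.07 and -1.30 over 21, 16, 13 and 7 tested genes, and 0 of them were called by edgeR. At an unadjusted p under 0.05, 4 MHC genes were lower, 1 BCL2 family gene was higher and 1 lower, 1 mitochondrial gene was higher and 1 erythroid gene lower, and DESeq2 called 1 gene of each list.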
